A study of Mus musculus with 5 samples.

Results

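The expression of 10 regulators of the distal Sost enhancer was followed in Ocy454, an osteocyte-like line from mouse, over 5 clones each grown from a single cell. They are the MEF2 transcription factors Mef2a, Mef2c and Mef2d, the class IIa histone deacetylases Hdac4, Hdac5, Hdac7 and Hdac9, and the salt-inducible kinases Sik1, Sik2 and Sik3. The genes were picked by symbol, and all 10 were found, each with 1 row, among 23185 named genes. The labels state that Sost, the gene of the Wnt inhibitor sclerostin, was screened in 37 clones. Clones 12H and 15H had the highest Sost (high SOST, n = 2) and clones 4L, 9L and 24L had low Sost (low SOST, n = 3). All grew for 7 days at 37 °C without treatment and gave 1 Affymetrix array each, so the number of arrays limits the precision. Each clone is 1 line with 1 array, and the p-values below measure the spread between clones, in which clone and culture cannot be told apart.

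As background, osteocytes shut down Sost when parathyroid hormone binds its receptor. MEF2 factors, above all MEF2C, switch on the distal Sost enhancer. Class IIa HDACs carry little enzyme activity of their own and silence MEF2 by binding to it in the nucleus. SIKs phosphorylate these HDACs, which then sit in the cytoplasm on 14-3-3 proteins. Cyclic AMP and protein kinase A inhibit the SIKs, so HDACs enter the nucleus and MEF2 falls silent. Much of this control works on protein and is not seen in RNA.

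Values are RMA expression on the log2 scale, which can be compared between clones for 1 gene but not between genes. Array medians lay between 4.13 and 4.16. The 95th percentile of 1388 olfactory, vomeronasal and taste receptor genes, which are expressed mainly in sensory tissue, lay between 3.39 and 3.56 and marks the signal of genes that bone cells hardly use. All 10 genes stood above it in every clone. Of the markers of the labelled type, 5 of 10 osteocyte genes stood above it in every clone, while Mepe, Fgf23 and Ptprz1 stayed at or under it throughout. Of 10 muscle markers, 7 stayed at or under it in every clone, Ckm, Actn2 and Ryr1 among them, as did 6 of 9 blood and endothelial markers, 3 of 5 adipocyte markers, 1 of 6 chondrocyte markers and 1 of 7 neuronal markers. Above that percentile in every clone stood 5 of 6 chondrocyte and 4 of 7 neuronal markers, larger shares than for osteocyte markers. Also above it in every clone were 2 of 10 muscle, 2 of 9 blood and endothelial and 1 of 5 adipocyte markers. The summed log2 level of the muscle markers was 31.7 to 33.2 in high SOST and 32.0 to 32.1 in low SOST clones.

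Of the members, 2 carry the letters of a MEF2 site at their own start, and these promoters are shown because one belongs to a MEF2 gene that was higher in both high SOST clones and the other to an HDAC gene that hardly differed. Sequences are from RefSeq, build GRCm38.p6, and run from 250 bases before to 50 after the annotated start. Capitals mark the MEF2 consensus and, in Hdac5 only, TGACG, the core of the site bound by the cyclic AMP factor CREB.
Mef2a, chr7:67372809-67373108, minus strand: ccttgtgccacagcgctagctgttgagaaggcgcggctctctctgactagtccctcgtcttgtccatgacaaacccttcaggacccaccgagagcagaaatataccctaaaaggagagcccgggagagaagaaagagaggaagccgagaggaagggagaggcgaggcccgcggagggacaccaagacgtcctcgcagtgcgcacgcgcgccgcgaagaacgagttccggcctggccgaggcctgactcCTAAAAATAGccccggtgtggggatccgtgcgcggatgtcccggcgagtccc
Hdac5, chr11:102230123-102230422, minus strand: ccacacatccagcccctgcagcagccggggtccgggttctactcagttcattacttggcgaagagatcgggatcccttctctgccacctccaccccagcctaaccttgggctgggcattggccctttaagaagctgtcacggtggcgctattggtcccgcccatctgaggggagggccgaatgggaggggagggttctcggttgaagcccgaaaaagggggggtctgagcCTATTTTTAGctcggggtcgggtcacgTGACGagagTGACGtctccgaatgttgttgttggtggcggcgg
Both strands were searched over 15 promoters of 9 members; Sik1 has no entry. The MEF2 consensus was found in 2 of the 15, against 3.19% of 32851 mouse promoters of this length. TGACG, read on either strand, was found in 4 of the 15, those of Hdac4, Hdac5, Sik2 and Sik3, against 20.8% of all promoters. The longer CREB motif TGACGTCA, which contains TGACG, was found in 0 of the 15 against 1.79% of all. A match is a run of letters and does not show binding.

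All 3 MEF2 genes read higher in both high SOST clones than in any low SOST clone. No gene among the 10, or among all 23185, passed limma at a Benjamini-Hochberg adjusted p under 0.05 (0% of genes). At an unadjusted p under 0.05, Mef2a and Mef2d were higher in high SOST clones, 2 of the 10, against 3.07% of all genes, and Hdac7 was lower, 1 of the 10, against 2.71% of all genes. These counts moved with single clones, being 0 higher and 0 lower without 12H, 0 and 1 without 15H, and 1 and 1 without 9L or without 24L. Leaving out 4L kept 2 higher and 1 lower, but the 2 higher were then Mef2c and Mef2d, not Mef2a. Without overlap between groups, 3 of the 10 were higher against 8.26% of all genes and 1 was lower against 7.75%. The median difference of the 10 was 0.02, beside 0.00 over all named genes. Differences are high SOST minus low SOST on the log2 scale, with the standard error (SE) of limma. With 2 and 3 clones, 0.1 is the smallest p that an exact permutation test can reach.

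**Figure D1:**
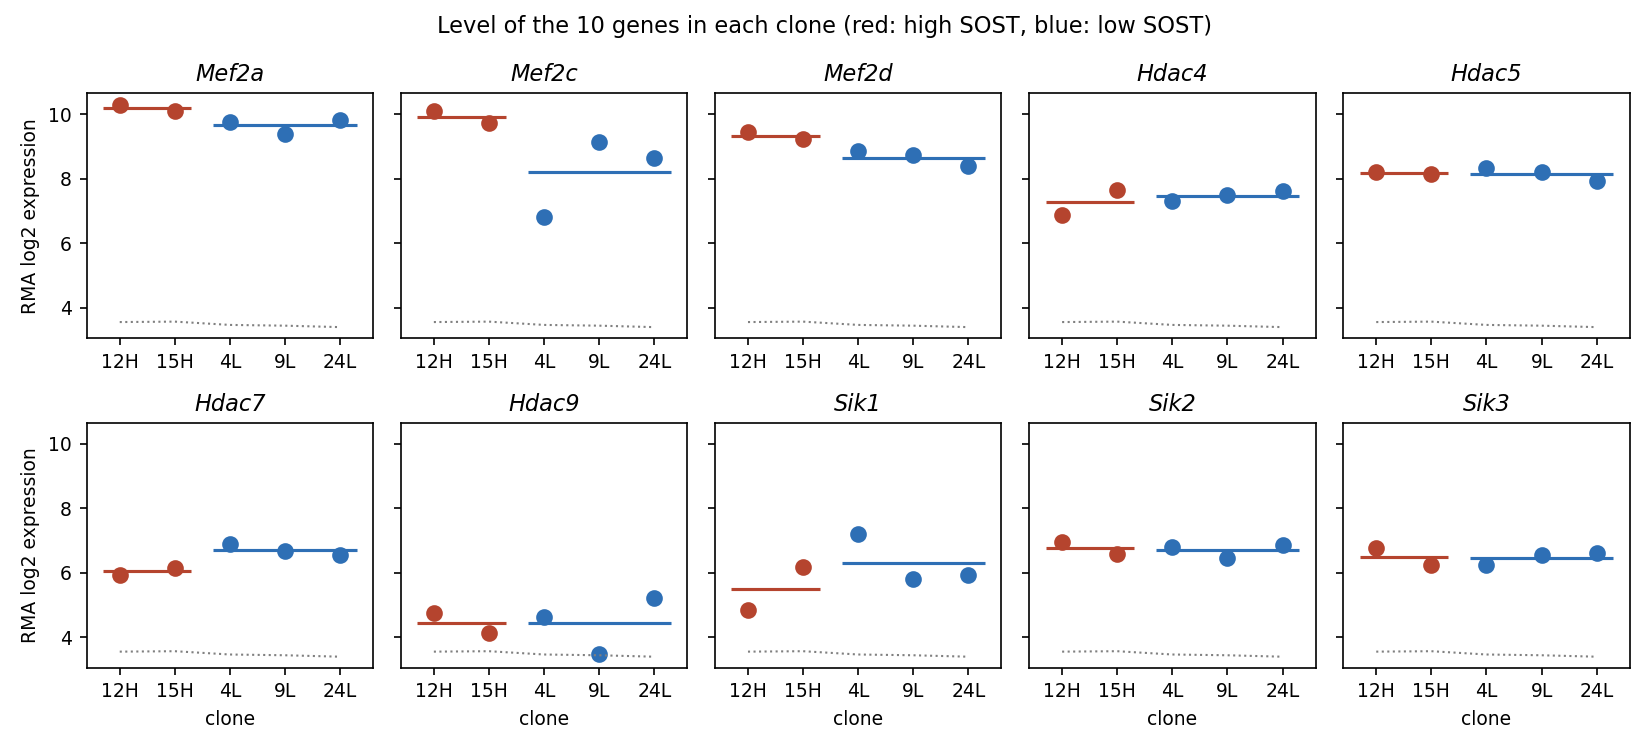
RMA log2 expression (vertical axis) of each of the 10 genes in the 5 clones (horizontal axis). Points are single arrays, red for high SOST and blue for low SOST, bars are group means, and the dotted line is the 95th percentile of sensory receptor genes on that array. The red points of Mef2a, Mef2c and Mef2d lie above all blue points, those of Hdac7 lie below, and clone 4L is lowest for Mef2c at 6.80 and highest for Sik1 at 7.19.

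Mef2c (Entrez gene 17260, chromosome 13), the MEF2 gene most tied to the Sost enhancer in bone, read 10.10 in 12H and 9.73 in 15H, and 6.80, 9.14 and 8.62 in 4L, 9L and 24L in turn. Both high SOST clones were above all low SOST clones, by 0.58 at the nearest pair, and 4L lay far below the rest. High SOST clones averaged 9.92 ± 0.27 (SD, n = 2) and low SOST clones 8.19 ± 1.23 (SD, n = 3). They differed by 1.73 (SE 0.84, 95% interval -0.67 to 4.13) or 3.31-fold, with adjusted p = 0.737 by limma and exact permutation p = 0.2, two-sided. Its range over the clones, 3.31, was wider than that of 98.9% of the 7807 genes with a mean of 6 or more, whose median range was 0.58. Clone 4L deviated from the mean of the other 4 clones by -2.60. Without 4L the difference was 1.03 (SE 0.28), with adjusted p = 0.732 by limma.

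Mef2a (Entrez gene 17258, chromosome 7), a widely expressed MEF2 factor, read 10.29 in 12H and 10.09 in 15H, and 9.75, 9.39 and 9.81 in 4L, 9L and 24L in turn. The nearest clones of the groups were 0.29 apart. The means of 10.19 ± 0.14 (SD, n = 2) and 9.65 ± 0.22 (SD, n = 3) differed by 0.54 (SE 0.17, 95% interval 0.07 to 1.02), or 1.46-fold, with adjusted p = 0.737 by limma and the smallest exact permutation p the design allows, 0.1.

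Mef2d (Entrez gene 17261, chromosome 3), also widely expressed, read 9.43 in 12H and 9.23 in 15H, and 8.85, 8.73 and 8.37 in 4L, 9L and 24L in turn. Again both high SOST clones exceeded every low SOST clone, the nearest by 0.39. The means of 9.33 ± 0.14 (SD, n = 2) and 8.65 ± 0.25 (SD, n = 3) differed by 0.68 (SE 0.18, 95% interval 0.17 to 1.19), or 1.60-fold, with adjusted p = 0.737 by limma and exact permutation p = 0.1. The lowest clone differed among the family, being 4L for Mef2c, 9L for Mef2a and 24L for Mef2d, while 12H and then 15H were highest for all 3. Mef2b, the remaining MEF2 gene, read 3.80 to 3.94 in every clone, a little above the sensory receptor mark, and differed by -0.04 (SE 0.05).

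Like the MEF2 genes, the summed log2 level of osteoblast markers (6 measured of 8 listed) was higher in both high SOST clones. It was 60.1 to 62.1 in high SOST and 34.9 to 53.6 in low SOST clones. That of the 10 osteocyte markers, which include Sost, was 51.2 to 52.0 against 38.9 to 41.2. The part of these markers in the MEF2 values was not tested.

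The class IIa HDACs did not move as a family. Of the 4 genes, 0 were higher and 1 was lower without overlap, beside 8.26% and 7.75% of all genes, and 3 overlapped between the groups. Hdac7 (Entrez gene 56233, chromosome 15), known for its role in vessels and thymocytes, read 5.92 in 12H and 6.16 in 15H, and 6.89, 6.67 and 6.56 in 4L, 9L and 24L in turn. Both high SOST clones were below all low SOST clones, by 0.40 at the nearest pair. The means of 6.04 ± 0.17 (SD, n = 2) and 6.70 ± 0.17 (SD, n = 3) differed by -0.67 (SE 0.14, 95% interval -1.07 to -0.27), 1.59-fold lower, with adjusted p = 0.677 by limma and exact permutation p = 0.1.

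Other genes of chromosome 15 moved in the same direction as Hdac7. Over 347 genes of that chromosome with a mean of 6 or more, the median deviation from the 5-clone mean was -0.30 in 12H, -0.09 in 15H, 0.23 in 4L, 0.22 in 9L and -0.05 in 24L. High SOST minus low SOST, that is -0.33, the lowest value among 20 chromosomes, the next lowest being -0.17 on chromosome 13. After these medians were subtracted, Hdac7 differed by -0.34 (SE 0.11, adjusted p = 0.618 by limma) and its groups still did not overlap. Of its measured neighbours, Rapgef3 differed by -0.68 (SE 0.40) and Tmem106c by -0.23 (SE 0.21), while the nearer Slc48a1 and Vdr, the vitamin D receptor, differed by 0.29 (SE 0.25) and 0.42 (SE 0.52). The part of a chromosome-wide shift in the Hdac7 value was not tested. Chromosome 13 showed the reverse for Mef2c, with a median of 0.29 in 4L, the clone with the lowest Mef2c, and the Mef2c difference after subtraction was 1.90 (SE 0.80).

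**Figure D2:**
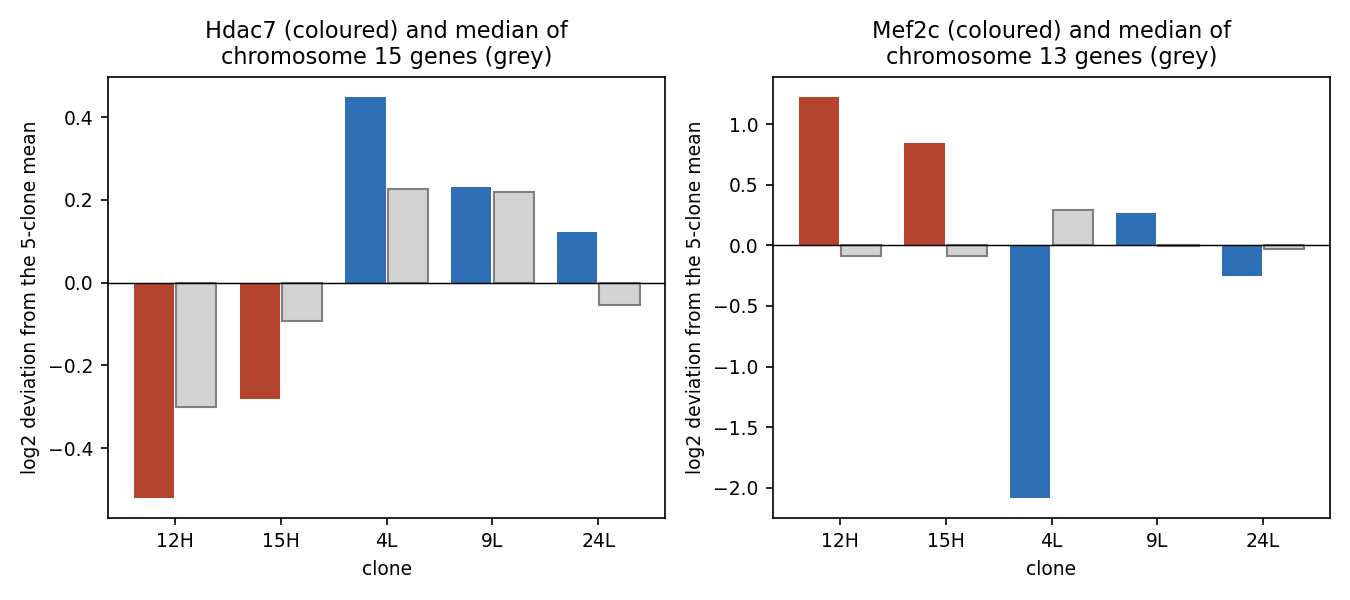
Deviation from the 5-clone mean on the log2 scale (vertical axis) in each clone (horizontal axis) for Hdac7 and Mef2c, in red for high SOST and blue for low SOST, beside the median deviation of genes of the same chromosome in grey. The grey bars of chromosome 15 have the sign of the Hdac7 bars in 4 of the clones and not in 24L, whereas for Mef2c in 4L the grey bar is 0.29 and the gene is at -2.08.

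Hdac4 (Entrez gene 208727, chromosome 1) and Hdac5 (Entrez gene 15184, chromosome 11) are the class IIa HDACs best known as MEF2C partners at the Sost enhancer. Hdac4 read 6.88 in 12H and 7.63 in 15H, and 7.29, 7.48 and 7.63 in 4L, 9L and 24L in turn. The high SOST clones held both the lowest and the highest value, so the groups overlapped. The difference was -0.21 (SE 0.28, 95% interval -1.00 to 0.58) with adjusted p = 0.812 by limma, and without 12H it was 0.16 (SE 0.17).

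Hdac5 read 8.20 in 12H and 8.13 in 15H, and 8.33, 8.20 and 7.92 in 4L, 9L and 24L in turn. Both high SOST clones lay inside the low SOST range. The means of 8.17 ± 0.05 (SD, n = 2) and 8.15 ± 0.21 (SD, n = 3) differed by 0.02 (SE 0.14, 95% interval -0.40 to 0.43). A difference of up to about 0.4 in either direction thus lies within the interval. The Hdac5 range over clones, 0.41, was wider than that of 29.4% of genes with a mean of 6 or more, the lowest share among the 8 members that reach this mean.

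Hdac9 (Entrez gene 79221, chromosome 12), which also gives rise to a short form without the catalytic domain, lay between the 41.1 and 59.0 percentile of the named genes on its arrays, near the middle. The deposited value is 1 per gene, so the forms are not told apart. It read 4.76 in 12H and 4.13 in 15H, and 4.62, 3.48 and 5.20 in 4L, 9L and 24L in turn. The low SOST clones held both ends of its range of 1.72. The difference was 0.01 (SE 0.63, 95% interval -1.78 to 1.80).

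Among the SIKs the groups overlapped for all 3 genes. Sik1 (Entrez gene 17691, chromosome 17), the kinase gene of the family that cyclic AMP itself induces, read 4.85 in 12H and 6.16 in 15H, and 7.19, 5.80 and 5.94 in 4L, 9L and 24L in turn. The difference of 12H minus 15H was -1.31, 12H being the lowest of all and 15H above 2 of the low SOST clones. The means of 5.50 ± 0.93 (SD, n = 2) and 6.31 ± 0.77 (SD, n = 3) differed by -0.81 (SE 0.68, 95% interval -2.74 to 1.13), with adjusted p = 0.753 by limma. Without 12H the difference was -0.15 (SE 0.79) and without 15H it was -1.46 (SE 0.79). Clones 12H and 4L took opposite ends for Mef2c and Sik1. Clone 12H had the highest Mef2c and the lowest Sik1, and 4L the lowest Mef2c and the highest Sik1, while the 3 clones between them did not keep 1 order.

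Sik2 (Entrez gene 235344) and Sik3 (Entrez gene 70661), both on chromosome 9, varied little. Sik2, the kinase known to act on HDAC4 and HDAC5 downstream of parathyroid hormone in osteocytes, read 6.94 in 12H and 6.58 in 15H, and 6.78, 6.45 and 6.85 in 4L, 9L and 24L in turn. Its difference was 0.06 (SE 0.19, 95% interval -0.47 to 0.60). Sik3, which acts with Sik2 in bone, read 6.76 in 12H and 6.23 in 15H, and 6.23, 6.56 and 6.60 in 4L, 9L and 24L in turn, a difference of 0.03 (SE 0.23, 95% interval -0.62 to 0.68). For both kinases 12H was the highest clone and 24L the next. The sign of either difference turned when 12H was left out, to -0.12 for Sik2 and -0.24 for Sik3.

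**Figure D3:**
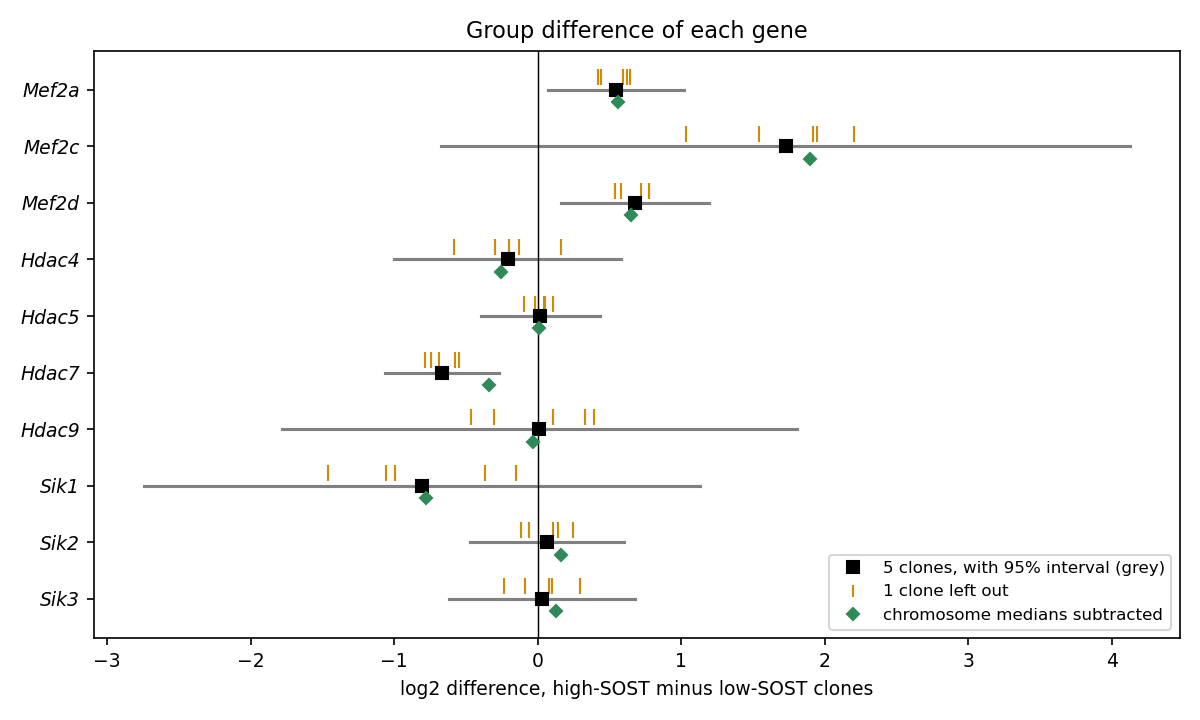
Log2 difference of high SOST minus low SOST clones (horizontal axis) for each of the 10 genes (vertical axis). Black squares are values from 5 clones with their 95% interval in grey, orange ticks leave out 1 clone each, and green diamonds have chromosome medians subtracted. The intervals of Mef2a, Mef2d and Hdac7 do not cross 0 before adjustment over all genes, and the interval of Mef2c, -0.67 to 4.13, does.

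Likeness between genes was measured as the root mean square difference of their values over the 5 clones, each gene centred on its own mean. Among the 45 pairs of members, Sik2 and Sik3 were nearest, at 0.22, and Mef2c and Sik1 farthest apart, at 1.85. The measure is not scaled for range, so genes that vary little lie near each other. Mef2c and Sik1 had the widest ranges of the 10, at 3.31 and 2.34, and Sik2 and Sik3 narrow ones, at 0.49 and 0.53. The genes nearest to Mef2c among 7538 other genes of mean 6 or more, once predicted genes, clone-named genes, sensory receptors and small RNAs were set aside, were Prss35 at 0.24, Eif4g3 at 0.25 and Prkar1b, a regulatory subunit of protein kinase A, at 0.29. Each of these was lowest in 4L, at 4.07, 4.92 and 4.88. Nearest to Mef2d were Lats2, a kinase of the Hippo pathway, at 0.06, Exoc6 at 0.06 and Agrn at 0.06. Nearest to Sik1 were Tapbp, Sat1 and Tmem176a, each at 0.18, with 4L highest and 12H lowest in all 3, and nearest to Hdac9 were Pdgfrl at 0.19, Thbs1 at 0.22 and Larp1b at 0.25. The values rest on 5 clones, were picked as the smallest among all candidates and carry no test.

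The other genes of the pathway were taken from 8 lists, 98 genes of which 95 were measured. None of them passed over all genes (0 by limma at an adjusted p under 0.05), and at an unadjusted p under 0.05, 0 were higher and 6 lower, beside 3.07% higher and 2.71% lower of all genes. Without overlap, 11 were higher and 8 lower, beside 8.26% and 7.75% of all genes, and the median difference was 0.01. Sost, on which the clones were chosen, is among the 11, so that 10 of 94 remain higher when it is left out.

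Upstream of the SIKs, 1 list of 17 genes held the arm from parathyroid hormone to cyclic AMP together with the SIK upstream kinases. Without overlap, 3 of the 17 were higher and 2 lower (8.26% and 7.75% of all genes), with a median of 0.06. Pth1r, the hormone's receptor, was lowest in 4L like Mef2c, at 4.23, with 7.69 in each of the other low SOST clones, 9.20 in 12H and 8.99 in 15H. Its difference was 2.55 (SE 1.34), and 1.40 (SE 0.09) without 4L. Clones 9L and 24L hold equal Pth1r values, so the SE without 4L does not show how low SOST clones vary. The type II regulatory subunits of protein kinase A were lower, both with adjusted p = 0.737 by limma. Prkar2b read 5.98 and 6.56 in high SOST clones, and 7.46, 7.00 and 7.37 in 4L, 9L and 24L, a difference of -1.00 (SE 0.25). Prkar2a differed by -0.45 (SE 0.14), and its groups overlapped once chromosome medians were subtracted, at -0.35 (SE 0.17). Prkar1b, of type I, differed by 1.40 (SE 0.79), and by 0.72 (SE 0.08) without 4L. Its values in 9L and 24L, 6.92 and 6.91, were nearly equal, so the same limit holds for that SE. The catalytic subunits Prkaca and Prkacb and the SIK-activating kinase Stk11 overlapped between the groups when all clones were kept. Prkaca was lower without overlap with chromosome medians subtracted (-0.19) and without 12H (-0.14), and higher without 15H (0.11). Without 4L, Prkacb (0.044) and Stk11 (0.14) were higher without overlap. Among 6 CRTC and CREB family genes, which carry the other output of the SIKs, 1 was lower without overlap, namely Crem, at -0.33 (SE 0.12), or -0.17 (SE 0.08) without 12H. Crtc1 overlapped at 0.17 (SE 0.14), with 0.06 without 9L and 0.10 without 12H.

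Genes that act on class IIa HDACs showed small differences. Of 19 kinases and PP2A subunits, 2 were higher and 1 lower without overlap, where all genes gave 8.26% and 7.75%, with a median of -0.02. Prkd3, a protein kinase D gene, differed by -0.20 (SE 0.05) and Mark2 by 0.32 (SE 0.13), or 0.19 (SE 0.14) without 15H. Of 6 measured 14-3-3 genes, Ywhab differed by 0.29 (SE 0.18) without overlap, and by 0.16 (SE 0.12) without 4L; its groups overlapped under a repeated quantile normalization. Ywhaq overlapped at 0.07 (SE 0.04), with 0.016 without 12H, 0.13 without 15H and 0.03 with chromosome medians subtracted. Of 4 measured genes of the HDAC3 corepressor complex, through which class IIa HDACs are known to silence, 0 separated the groups, with Tbl1xr1 at 0.35 (SE 0.18) and Hdac3 at -0.10 (SE 0.07). Tbl1xr1 was higher without overlap after either rescaling and with chromosome medians subtracted, and its difference was 0.12 without 12H and 0.59 without 15H. Hdac3 was lower without overlap with chromosome medians subtracted, at -0.07 (SE 0.09), and ranged from -0.16 without 15H to -0.05 without 12H. Of 6 other zinc-dependent HDACs, 1 was lower without overlap, Hdac10 at -0.32 (SE 0.18), or -0.17 (SE 0.07) without 9L. Hdac8 overlapped at -0.37 (SE 0.25), with 0.0071 without 12H, -0.74 without 15H and -0.21 with chromosome medians subtracted. Hdac10 lies on chromosome 15 like Hdac7, and with chromosome medians subtracted its difference was 0.01 (SE 0.17).

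Among 17 regulators of MEF2, 1 was higher and 1 lower without overlap, beside 8.26% and 7.75% over all genes, with a median of 0.06. Rcan2, an inhibitor of calcineurin, read 3.69 in 12H and 4.00 in 15H, and 5.38, 4.73 and 5.96 in 4L, 9L and 24L in turn, a difference of -1.51 (SE 0.43). Its high SOST values are dim, the receptor mark being 3.55 on the 12H array and 3.56 on the 15H array. Ppp3r1, the regulatory subunit of calcineurin, differed by 0.47 (SE 0.23), and by 0.28 (SE 0.06) without 4L. Both had adjusted p = 0.737 by limma, and the p38 and ERK5 kinase genes Mapk14, Mapk11 and Mapk7 overlapped between the groups. With 15H left out, Mapk11 was lower without overlap, at -0.42.

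Of the 20 MEF2 target genes, 4 were higher and 2 lower without overlap and 14 overlapped. Without Sost, on which the clones were chosen, 3 of 19 were higher and 2 lower, beside 8.26% and 7.75% of all genes, and 8 differences were positive and 11 negative. Of the 20, 12 stood above the sensory receptor mark in every clone; several of the list are muscle genes. Jun, an immediate early factor, read 6.16 in 12H and 6.89 in 15H, and 7.56, 7.62 and 7.96 in 4L, 9L and 24L in turn, and differed by -1.19 (SE 0.29). Arc, another immediate early gene, differed by -0.91 (SE 0.18), and by -0.58 (SE 0.21) with the medians of its chromosome 15 subtracted. Adjusted p was 0.737 for Jun and 0.677 for Arc by limma. Des had the largest difference of the 20, at 1.26, with high SOST clones higher without overlap. Klf2 and Klf4, transcription factors controlled by MEF2 in several tissues, differed by 1.18 (SE 0.49) and 0.87 (SE 0.39), without overlap; without 12H these were 0.57 (SE 0.41) and 0.53 (SE 0.49), and without 15H Klf2 differed by 1.79. Sost itself chose the clones. It read 4.08 in 12H and 3.92 in 15H, and 3.78, 3.89 and 3.91 in 4L, 9L and 24L in turn, under the array median in every clone. The difference was only 0.14 (SE 0.07), and the nearest clones of the groups were 0.006 apart. With chromosome medians subtracted its groups overlapped, at 0.13 (SE 0.11).

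**Figure D4:**
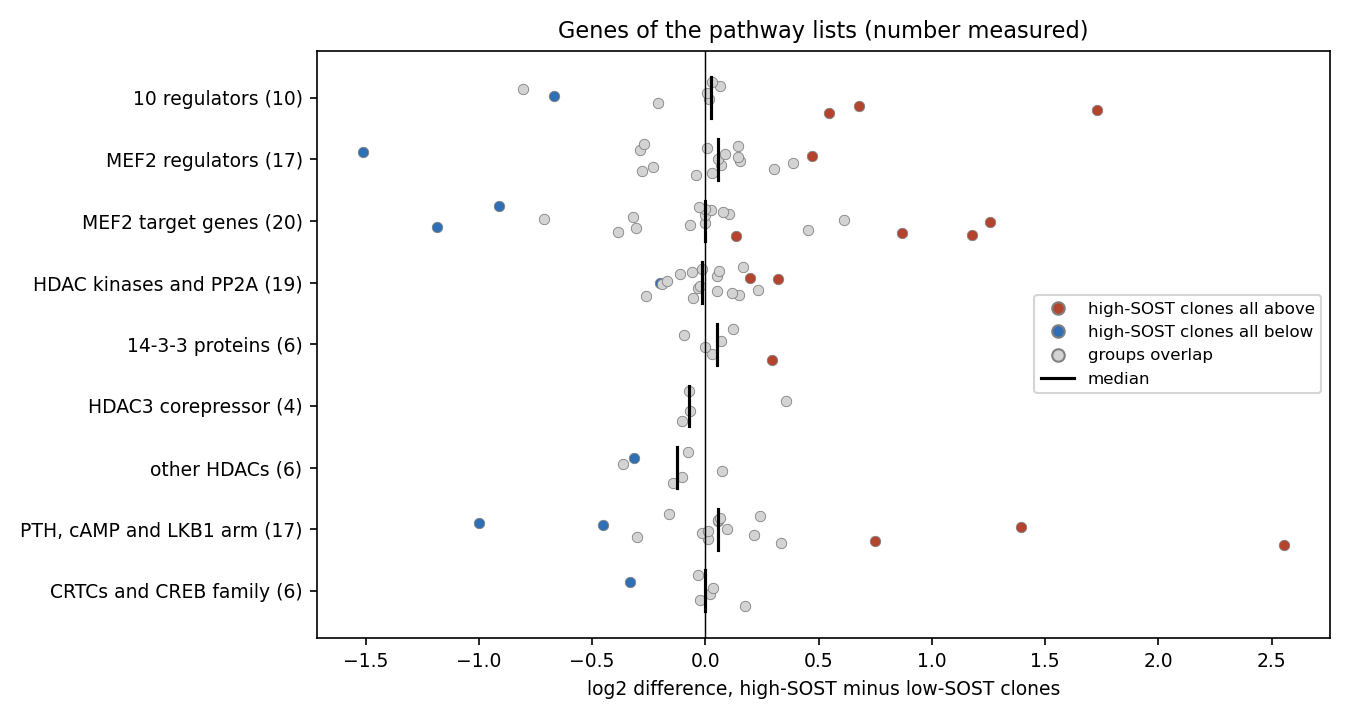
Log2 difference of high SOST minus low SOST clones (horizontal axis) for each measured gene of the 10 regulators and the 8 pathway lists (vertical axis, number measured in brackets). Red and blue points are genes whose high SOST clones all lie above or below the low SOST clones, grey points overlap, and black bars are medians. The medians lie between -0.12 and 0.06, and the widest point is Pth1r at 2.55.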

How the data were processed

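Each of 5 clones gave 1 Affymetrix array of biotin-labelled RNA. The deposited values are log2 expression per probe set. The tools RMA, affy (version 1.36.1) and R (2.15.1) stand in the submitters' processing notes. Chip definition and build: not given in the sources used here. Since RMA gives all arrays 1 distribution, a change in most genes at once cannot be seen. Of 25206 probe sets, 23185 have 1 gene in the platform table, 0 have several and 2021 have none and stayed out. Names were updated by Entrez number against RefSeq (GRCm38.p6), where all 23185 matched; chromosomes and neighbour order come from the same table.

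All named genes were fitted with limma 3.58.1 in R 4.3.3 (lmFit and eBayes, no trend; residual degrees of freedom 3, prior 0.701), two-sided, adjusted by Benjamini-Hochberg over all 23185. Intervals are 95% and unadjusted. The fit was tested on simulated data. A fold is 2 to the power of the log2 difference and is too small for dim genes. The members and lists were chosen with earlier results of these data known. Named were the members, from each list up to 4 genes with an unadjusted p under 0.05 and no overlap, or else the 2 of smallest p, and for members with a range of 1 or more the 3 nearest genes of mean 6 or more, leaving out predicted genes, clone-named genes, sensory receptors and small RNAs. Mef2b, Sost, Klf2, Klf4, Des, Pth1r and the difference of Prkar1b were chosen with their values already seen. The same holds for Prkaca, Prkacb, Stk11, Mapk14, Mapk11, Mapk7 and the neighbours of Hdac7. Of the 98 listed genes, 3 are not analysed here. Alternatives were leaving out the dimmest 30% of genes, 2 rescalings, other variance settings, array weights, subtracting chromosome medians, and leaving out each clone; without 12H or 15H the lone high SOST clone is assumed to vary like the others. Figures were drawn with matplotlib 3.10.9.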

Additional observations from a re-analysis of the deposited data

How the results depend on the processing

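Mef2a, Mef2c, Mef2d, Hdac7 and Sik1 kept their direction in all 13 alternatives, and the 10 members had an adjusted p of 0.282 or more in each of them. Leaving out 1 clone gave 0.42 to 0.65 for Mef2a, 1.03 to 2.21 for Mef2c, 0.54 to 0.78 for Mef2d, -0.79 to -0.55 for Hdac7, -1.46 to -0.15 for Sik1, -0.58 to 0.16 for Hdac4, -0.10 to 0.11 for Hdac5, -0.47 to 0.39 for Hdac9, -0.12 to 0.24 for Sik2 and -0.24 to 0.30 for Sik3. The direction of Hdac4 turned without 12H (0.16), of Hdac5 without 12H (-0.02) and 24L (-0.10), of Sik2 without 12H (-0.12) and 9L (-0.06), of Sik3 without 12H (-0.24) and 4L (-0.09), and of Hdac9 without 12H (-0.31) and 9L (-0.47), with array weights (-0.049) and with chromosome medians subtracted (-0.032). Among the pathway genes picked by the naming rule, Hdac10 (0.0095) and Crtc1 (-0.0021) turned with chromosome medians subtracted, and Hdac8 without 12H (0.0071). The range of Hdac8 with a clone left out was -0.74 to 0.0071. Of genes named with their values seen, Mapk11 turned with chromosome medians subtracted (0.094) and without 9L (0.065). Prkaca turned without 15H (0.11), without 24L (0.014) and under a repeated quantile normalization (0.0022). Prkacb turned with chromosome medians subtracted (-0.015) and without 9L (-0.019), and Stk11 without 9L (-0.048). Mapk7 turned without 15H (-0.06) and 9L (-0.042), and Mef2b without 24L (0.0037). At an unadjusted p under 0.05, 0 to 2 members were higher and 0 to 1 lower with a clone left out, the 0 higher being without 12H and without 15H and the 0 lower without 12H, and 1 was higher with no moderation. Without overlap, 3 to 5 members were higher and 1 to 3 lower with a clone left out, where fewer clones make non-overlap easier. Over all genes the counts at an unadjusted p under 0.05 were 712 higher and 628 lower, 462 and 406 with no moderation, and 633 to 1816 and 640 to 1289 with a clone left out. At an adjusted p under 0.05, Spns2 and Megf10 passed with arrays shifted to 1 median and with chromosome medians subtracted (2 genes higher in each), and Sycp1-ps1, whose values hardly vary, with no moderation (1 gene). The causes were not tested. No paired analysis was possible because each clone has a name of its own and the groups share none. Among the 10 members, dim signal limits Hdac9 most, which read 3.48 in 9L beside a receptor mark of 3.44 on that array.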
